A study of Bos taurus with 30 samples.

Results

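The genes described here code for the collagens and for a set of other proteins of the extracellular matrix: fibrillins, fibulins, tenascin C, fibronectin, thrombospondins, versican and the hyaluronan link proteins, the SPARC family and the lysyl oxidases. Members were taken by cattle gene symbol, and a gene was kept when at least 3 libraries held 10 or more counts for it. Of 70 genes with such a symbol, 66 met this minimum, out of 35092 genes listed. The 4 others were HAPLN2, with a highest count of 17, COL9A1, with a highest count of 13, LOXHD1, with a highest count of 9, and COL10A1, which had no count in any library.

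The libraries came from elongated bovine embryos recovered on day 15 of gestation, which were either produced in vitro (IVP) or conceived in vivo (IVV). IVP embryos started from oocytes of slaughterhouse ovaries, were matured, fertilized and grown in the laboratory without serum, and were passed to recipient cows on day 7. IVV embryos were conceived in superovulated cows by artificial insemination with semen of the bull that also served for IVP. From each embryo the embryonic disc (ED), which gives rise to the body of the calf, and pieces of the extra-embryonic membranes (EEM) around it were cut by hand. Libraries of the ED came from 7 IVP and 9 IVV embryos and those of the EEM from 6 and 8, and both tissues were at hand for 5 IVP and 8 IVV embryos. Each procedure rested on 2 cows, and the effects of cow and procedure cannot be told apart. Embryos in which no ED was seen were discarded by the authors, and the labels give no length, shape or sex for an embryo, so that these were not separated from procedure here.

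Collagens are trimers of chains coded by separate genes. Fibrillar collagens form the ropes of connective tissue, with types V and XI setting the width of fibrils of types I and II, and collagen IV is the sheet that underlies epithelia. Fibrillins build microfibrils that hold growth factors of the TGF-beta and BMP families, and fibronectin, tenascin C and the thrombospondins are glycoproteins to which moving cells attach or from which they detach. At the stage sampled here, the disc enters gastrulation and mesoderm cells migrate out of the primitive streak over a matrix of this kind, while the trophoblast and hypoblast of the membranes rest on a shared basement membrane.

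The 30 libraries held between 48713218 and 63037371 counts. Levels are given as CPM, the share of a library's counts scaled to a common depth with TMM factors. These are bulk samples, in which fewer cells of a type and less RNA per cell cannot be told apart. The pluripotency factor NANOG, an epiblast gene, had 157 to 2862 counts in every ED library and at most 10 counts in any EEM library. The summed level of 11 epiblast markers, however, overlapped between tissues. It ran from 220.7 to 1044 CPM in the ED and from 105.1 to 235.6 CPM in the EEM. Trophoblast genes were present in both tissues, as the summed level of 15 trophoblast markers ran from 9074 to 46640 CPM in the ED and from 22090 to 69430 CPM in the EEM. XIST, the RNA that coats an inactive X chromosome, was at most 0.591 CPM in all 13 IVP libraries and in both libraries of the IVV embryos VE3 and VE5, and between 45.1 and 424 CPM in the other 13 IVV libraries, so that XIST and procedure nearly coincide.

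In 12 of the 13 embryos with both tissues, the ED library deviated from its group in the same genes as the EEM library of the same embryo (r from 0.34 to 0.818 across 11237 genes, as a description). The embryo labelled IVPF13 stood apart, with r = -0.365 between its own ED and EEM and a highest r of 0.452 between its ED and the EEM of another embryo. Over genes in which the ED and EEM of the other 12 embryos varied together, r was 0.213 within IVPF13, while each of the 12 others, over genes chosen in the same way, reached 0.821 to 0.978. Counts and calls of the members that changed without IVPF13 are therefore given beside the result, and the further lists of genes were not fitted without it.

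The genes of the basement membrane and fibronectin had many counts in both tissues and under both procedures. FN1, which codes for fibronectin, ran in the ED from 1651 to 6096 CPM (median 2939) in IVP embryos and from 1487 to 3307 CPM (median 2192) in IVV embryos. In the EEM its level ran from 1851 to 5576 CPM (median 2911) in IVP embryos and from 1015 to 3652 CPM (median 2506) in IVV embryos. All 4 ranges overlapped, and FN1 passed the test in none of the comparisons below.

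COL4A1 and COL4A2, whose products join into the collagen IV trimer of all basement membranes, had medians of 404 and 368 CPM in the ED of IVP embryos and of 418 and 379 CPM in IVV discs. Their medians in the membranes were 618 and 453 CPM in IVP embryos and 403 and 372 CPM in IVV embryos. SPARC, a collagen-binding glycoprotein, FBLN2, a fibulin of basement membranes, and COL18A1, the precursor of endostatin, likewise had medians between 184 and 473 CPM in the 4 groups. None of these 5 genes passed the test between tissues or between procedures, and their fitted log2 differences ran from -0.71 for COL18A1 and -0.69 for COL4A2, ED over EEM in IVP embryos, to 0.61 for COL4A1, IVP over IVV in the EEM. Together the 66 members took between 0.182% and 1.28% of the counts of a library.

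**Figure D1:**
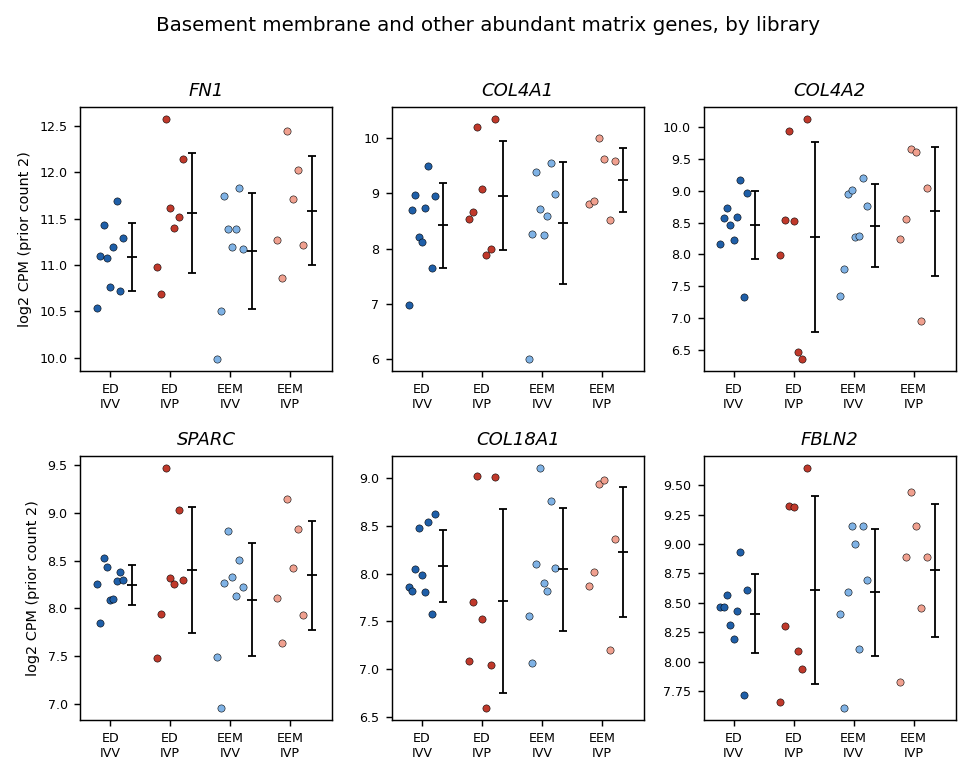
Levels of FN1, COL4A1, COL4A2, SPARC, COL18A1 and FBLN2 in each library, as log2 CPM with a prior count of 2, for ED and EEM of IVV and IVP embryos (9, 7, 8 and 6 libraries). Points are libraries and the bar beside them is the mean with its SD. The 4 groups overlap in each of the 6 genes, as in FN1, where the medians run from 2192 to 2939 CPM.

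The comparison of ED with EEM in IVV embryos asked which matrix genes set the disc apart from the membranes around it when development took place in vivo. Of the 61 members tested, 34 were higher in the ED and 0 were lower (edgeR quasi-likelihood test on pairs of tissues from 1 embryo, adjusted p under 0.05). This is 55.7% of the members tested, whereas 22.1% of all 16784 genes tested were called, 15.5% as higher and 6.58% as lower. The median log2 difference of the members was 1.52, beside -0.10 over all genes. In 11 of the 34 members no EEM library of an IVV embryo held 10 counts, so that among IVV embryos only their ED libraries carried them through the minimum, and the other 23 had at least 1 such EEM library. At an unadjusted p under 0.05, 0 members were lower as well, where 5763 of all genes passed in either direction. DESeq2 called 35 higher and 0 lower, beside 4120 of all genes in either direction. Without IVPF13, 38 were higher and 0 lower, with COL5A3, COL7A1, COL8A1 and HAPLN1 gained. Over all 9 ED and 8 EEM libraries of IVV embryos, every ED library lay above every EEM library in 16 members and in 5.51% of all genes. The reverse held in 0 members and in 0.0655% of all genes.

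Of 9 fibrillar collagens tested, 8 were higher in the ED, with a median log2 difference of 2.83. COL5A2, a chain of collagen V, ran from 1.14 to 11.6 CPM (median 4.60) in the 9 ED libraries and had 0 counts in all 8 EEM libraries. Counted against 3 counts per EEM library in the 8 paired embryos, this is at least 80.8-fold higher in the ED. COL2A1, the collagen of cartilage and notochord, ran from 2.23 to 30.8 CPM (median 7.83) in the ED and from 0.0751 to 1.00 CPM (median 0.294) in the EEM, a log2 difference of 4.75 (SE 0.358, adjusted p = 1.17e-08), with no overlap. COL11A1 and COL11A2, chains of collagen XI, were higher by 6.05 and 2.83 on the log2 scale.

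Both collagen I genes were higher in the ED. In the EEM of IVV embryos COL1A1 was at 84 to 1050 counts, and COL1A2, the partner chain of the same trimer, was at 3 to 24 counts, with neither corrected for length. In the ED of IVV embryos COL1A2 ran from 0.0403 to 14.4 CPM (median 3.50) and COL1A1 from 2.69 to 46.8 CPM (median 18.97). Their log2 differences between tissues were 3.72 (SE 0.687) for COL1A2 and 0.87 (SE 0.225) for COL1A1, and COL1A2 was higher in 6 of 8 embryos. The count ratio of COL1A2 to COL1A1 within a library ran from 0.0140 to 0.307 (median 0.212) in IVV discs and from 0.00286 to 0.286 (median 0.0218) in IVV membranes. These ranges overlapped, with the highest membrane, VE3, above the median of the discs and the lowest disc, VE19, below that of the membranes.

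COL15A1, which codes for a collagen that ties basement membranes to the fibrils below them, ran from 2.17 to 67.1 CPM (median 15.3) in IVV discs and had 0 or 1 count in each EEM library of IVV embryos, at least 392.3-fold higher in the ED against the same limit. Of collagen IV, COL4A5 and COL4A6 were higher in the ED by 1.54 and 2.21, unlike COL4A1 and COL4A2, whose values were given above. COL4A3 and COL4A4 had at most 45 counts in any library and did not pass the test.

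Collagen VI forms beaded filaments at the border of basement membranes. COL6A1, COL6A2 and COL6A3, the chains of its common form, were all higher in the ED, by 1.57, 1.67 and 3.46, and COL6A3 ran from 0.838 to 13.2 CPM (median 3.38) in the ED against 0.107 to 0.555 CPM (median 0.172) in the EEM. COL6A5 and COL6A6, which code for alternative chains of the same filament, had log2 differences of -0.06 and -0.29 that did not pass the test. COL26A1, named after the collagens but shorter, was at 1.48 to 10.02 CPM in the ED and at 0 to 7 counts in the EEM, a log2 difference of 6.28 (SE 0.525, adjusted p = 4.5e-08). The call of COL6A1 ended without the embryo as a block and when VE3, VE4, VE5, VE24, VE26 or VE29 was left out.

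Among collagens that decorate fibrils (the FACIT group), 5 of 8 members tested were higher in the ED: COL9A2, COL16A1, COL14A1, COL21A1 and COL20A1, by 3.55, 6.30, 2.09, 2.25 and 2.32. COL13A1, a transmembrane collagen of cell adhesion sites, had 0 to 50 counts in the ED and 0 to 2 in the EEM, at least 5.24-fold higher in the ED. The 3 other transmembrane collagens, COL17A1, COL23A1 and COL25A1, did not pass the test.

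FBN2 and FBN3, the fibrillins of embryonic tissue, were higher in the ED, and FBN1, the main fibrillin of later life, had a log2 difference of -0.04 (SE 0.183). FBN2 ran from 0.797 to 5.10 CPM (median 3.06) in the ED of IVV embryos and from 0.0855 to 0.309 CPM (median 0.203) in their EEM, a log2 difference of 3.90 (SE 0.298, adjusted p = 1.4e-08). FBN3 ran from 0.579 to 10.4 CPM (median 1.99) in the ED and had 0 to 2 counts in the EEM, at least 58.0-fold higher in the ED. No EEM library of the paired IVV embryos reached the lowest ED library of FBN2 or FBN3.

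TNC, which codes for tenascin C, a glycoprotein that loosens the hold of cells on fibronectin, ran from 0.868 to 3.52 CPM (median 2.51) in the ED of IVV embryos and from 0 to 0.242 CPM (median 0.0747) in their EEM, a log2 difference of 4.62 (SE 0.468, adjusted p = 4.56e-07). THBS4, a thrombospondin of muscle and tendon matrix, ran from 1.81 to 21.5 CPM (median 4.91) in the ED and from 0.0882 to 0.401 CPM (median 0.163) in the EEM, a log2 difference of 4.97 (SE 0.374, adjusted p = 1.17e-08). For both genes the tissues did not overlap. THBS2 was higher by 1.52, while THBS1 and THBS3 had differences of 0.24 and 0.42 that did not pass the test.

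VCAN, the large proteoglycan that binds hyaluronan, was higher in the ED by 0.83 (SE 0.155), and its link proteins HAPLN3 and HAPLN4 by 2.92 and 2.43. LOXL2, LOX and LOXL1, enzymes that cross-link collagen and elastin, were higher by 0.76, 2.47 and 2.27, and LOXL3 and LOXL4 had differences of 0.17 and -0.24. SPARCL1, which had 0 to 28 counts in the ED and 0 to 2 in the EEM, was at least 3.81-fold higher in the ED, and FBLN1 was higher by 1.15. Without the embryo as a block COL1A1, COL5A1, COL20A1, LOXL2 and VCAN were no longer called, and COL13A1, COL20A1 and COL21A1 left the calls when single IVV embryos were left out. With DESeq2, COL13A1 and COL20A1 were not called.

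**Figure D2:**
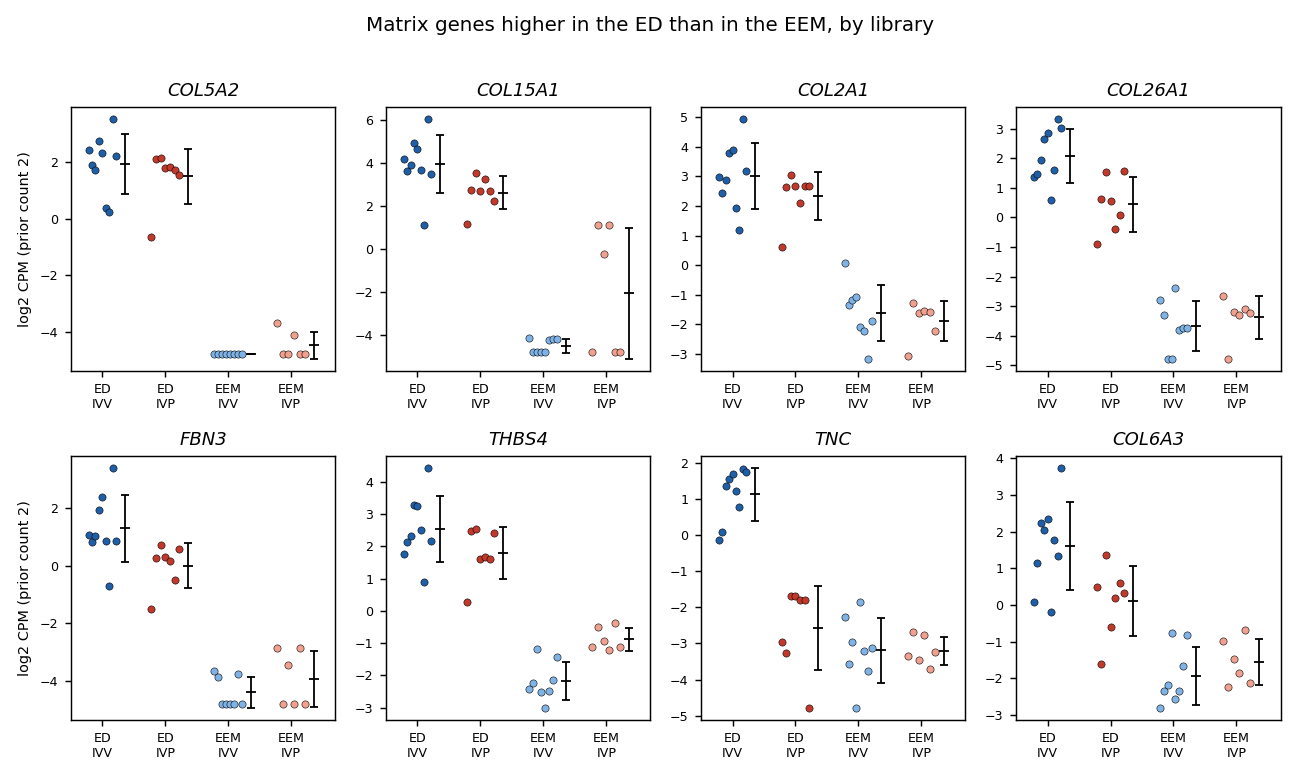
Levels of COL5A2, COL15A1, COL2A1, COL26A1, FBN3, THBS4, TNC and COL6A3 in each library, as log2 CPM with a prior count of 2. Points are libraries of ED and EEM of IVV and IVP embryos and the bar beside them is the mean with its SD. The ED libraries of IVV embryos lie above all EEM libraries of IVV embryos in each gene, and TNC in the ED of IVP embryos lies below all ED libraries of IVV embryos.

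The 34 members that were higher in the disc varied widely among the 9 IVV discs. VE5 held the highest level in 12 of them, among them COL15A1 (67.1 CPM), COL2A1 (30.8 CPM), THBS4 (21.5 CPM), COL9A2 (16.5 CPM), COL5A2 (11.6 CPM) and FBN3 (10.4 CPM). VE4 held the lowest level in 15 of the 34, and in each of these 6 genes. The summed level of 11 epiblast markers was also highest in VE5, at 1044 CPM, and lowest in VE4, at 220.7 CPM, and that of 15 mesoderm markers was 141.9 CPM in VE5 and 25.5 CPM in VE4. The part of disc or mesoderm content in these levels was not tested.

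VE6 held the highest level in 12 others of the 34 members. These were COL1A1 (46.8 CPM), COL1A2 (14.4 CPM), COL5A1 (15.0 CPM), COL6A1, COL6A2, COL6A3 (13.2 CPM), COL4A5, COL4A6, COL13A1, COL27A1, FBLN1 and LOXL2. They are grouped by this alone and did not share a lowest disc. The share of all genes that were highest in VE5 or in VE6 was not computed. VE19 was at 0.0403 CPM for COL1A2 and 0.282 CPM for COL5A1, the lowest of the 9 discs, although its level of COL15A1 was 18.2 CPM and that of COL5A2 5.33 CPM. VE4, the lowest disc for COL15A1 and COL5A2, was at 7.38 CPM for COL1A2 and 8.17 CPM for COL5A1, in both cases the second highest of the 9. COL5A1 and COL5A2, which code for chains of 1 trimer, therefore did not rank the discs alike. Among the 12 genes highest in VE6, the lowest disc was VE4 for COL4A5 (2.00 CPM) and COL4A6 (0.228 CPM). It was VE3 for COL1A1 and COL6A3, VE24 for COL13A1, COL27A1 and FBLN1, VE5 for LOXL2, and VE19 for the 4 others. The summed level of 10 markers of endothelium and blood progenitors was highest in VE6, at 57.97 CPM, second highest in VE4, at 39.87 CPM, and lowest in VE19, at 5.993 CPM, so that VE19 was lowest in the sum and in 4 of the 12 genes. The part of such cells in these levels was not tested.

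Of the 61 members tested in the same fit, 14 were higher in the ED of IVP embryos (23%, beside 4.16% of all genes) and 1 was lower (1.64%, beside 0.661%). The median log2 difference was 0.12, beside -0.07 over all genes. At an unadjusted p under 0.05, 22 members were higher and 7 lower, beside 2850 of all 16784 genes in either direction. DESeq2 called 18 higher and 1 lower, beside 1201 of all genes in either direction. Over all 7 ED and 6 EEM libraries of IVP embryos, every ED library lay above every EEM library in 10 members and in 2.63% of all genes. The reverse held in 0 members and 0.0834% of all genes. In 6 of the 14 no EEM library of an IVP embryo held 10 counts, and in 8 at least 1 did. Without the embryo IVPF13, 10 members were higher and 0 were lower, and without IVP14, 9 were higher and 1 was lower. The IVP contrast rests on 5 embryos and the IVV contrast on 8, and both come from 1 fit, so that their counts are given side by side and the difference itself is tested below.

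COL5A2 was detected in every IVP disc, at 0.611 to 4.40 CPM (median 3.48), and had 0 to 2 counts in the 6 EEM libraries, at least 53.7-fold higher in the ED. COL2A1 ran from 1.48 to 8.21 CPM (median 6.35) in the ED and from 0.0815 to 0.373 CPM (median 0.295) in the EEM, a log2 difference of 4.22 (SE 0.444, adjusted p = 5.52e-06). COL11A1, COL26A1, COL4A6, FBN3 and THBS4 were higher in the ED by 4.62, 4.04, 2.403, 4.05 and 2.59, with no overlap of the tissues. The calls of these 7 genes held without IVPF13. HAPLN3 and LOXL2 were higher by 2.401 and 0.75, and COL6A2 and COL6A3 by 1.38 and 1.76. COL6A3 had an adjusted p of 0.0629 without IVPF13 and of 0.106 without IVP14. The calls of HAPLN3 and LOXL2 ended without IVP11, IVP14, IVPF13 or IVPF14 and that of COL6A2 without IVP10, IVP11, IVP14 or IVPF14, and LOXL2 and COL6A2 also lost theirs without the embryo as a block.

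COL16A1 had 7 to 57 counts in the IVP discs and 0 to 2 in the EEM, at least 6.02-fold higher in the ED. SPARCL1 had 2 to 24 counts in the discs and 0 to 2 in the EEM, at least 3.11-fold higher. The call of COL16A1 ended without IVP11 or without IVP14, with fitted log2 differences of 3.72 (adjusted p = 0.0548) and 3.26 (adjusted p = 0.107), which depend on a prior count. That of SPARCL1 ended without IVP10, IVP11, IVPF13 or IVPF14.

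COL15A1, which the membranes of IVV embryos nearly lacked, had counts in the membranes of 3 of the 6 IVP embryos. It had 112 counts in the EEM of IVP11, 100 in that of IVPF13 and 46 in that of IVP14, and 0 counts in those of IVP10, IVPF14 and IVPF9, while no EEM library of an IVV embryo held more than 1 count. NANOG had at most 3 counts in the EEM of IVP embryos and COL5A2 at most 2. The summed epiblast markers of the EEM, however, were highest of all EEM libraries in IVP11, at 235.6 CPM, beside 177.4 CPM in IVP14, 163.7 CPM in IVPF13, and 227.4 CPM in IVPF9, which held no COL15A1 count. The summed mesoderm markers were highest among the IVP membranes in IVPF13 and IVP11, at 19.78 and 15.49 CPM, and IVP14 was at 10.4 CPM. The part of disc material in the counts of COL15A1 was not tested.

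In the ED of IVP embryos COL15A1 ran from 2.20 to 11.8 CPM (median 6.65), and the log2 difference between tissues was 3.51 (SE 0.611, adjusted p = 0.00152, and 0.0984 without the embryo as a block).

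THBS1, a thrombospondin that binds TGF-beta, was the member lower in the ED of IVP embryos, at 2.91 to 39.9 CPM (median 15.1) in the ED and 6.79 to 46.7 CPM (median 24.7) in the EEM, a log2 difference of -1.46 (SE 0.398, adjusted p = 0.0388). It was lower in 5 of 5 pairs, but the groups overlapped, and without IVPF13 the difference was -0.97 and did not pass the test (adjusted p = 0.136). The call also ended without IVP11, IVPF14, VE24, VE26, VE28 or VE29, with values down to -1.49, and without the embryo as a block (-1.52, adjusted p = 0.39) or with no filter on low counts (-1.42, adjusted p = 0.181). FBN2 had a log2 difference of -0.45 (SE 0.329, adjusted p = 0.534) and TNC of 1.18 (SE 0.628, adjusted p = 0.363) in IVP embryos, in contrast with the values for IVV embryos above.

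**Figure D3:**
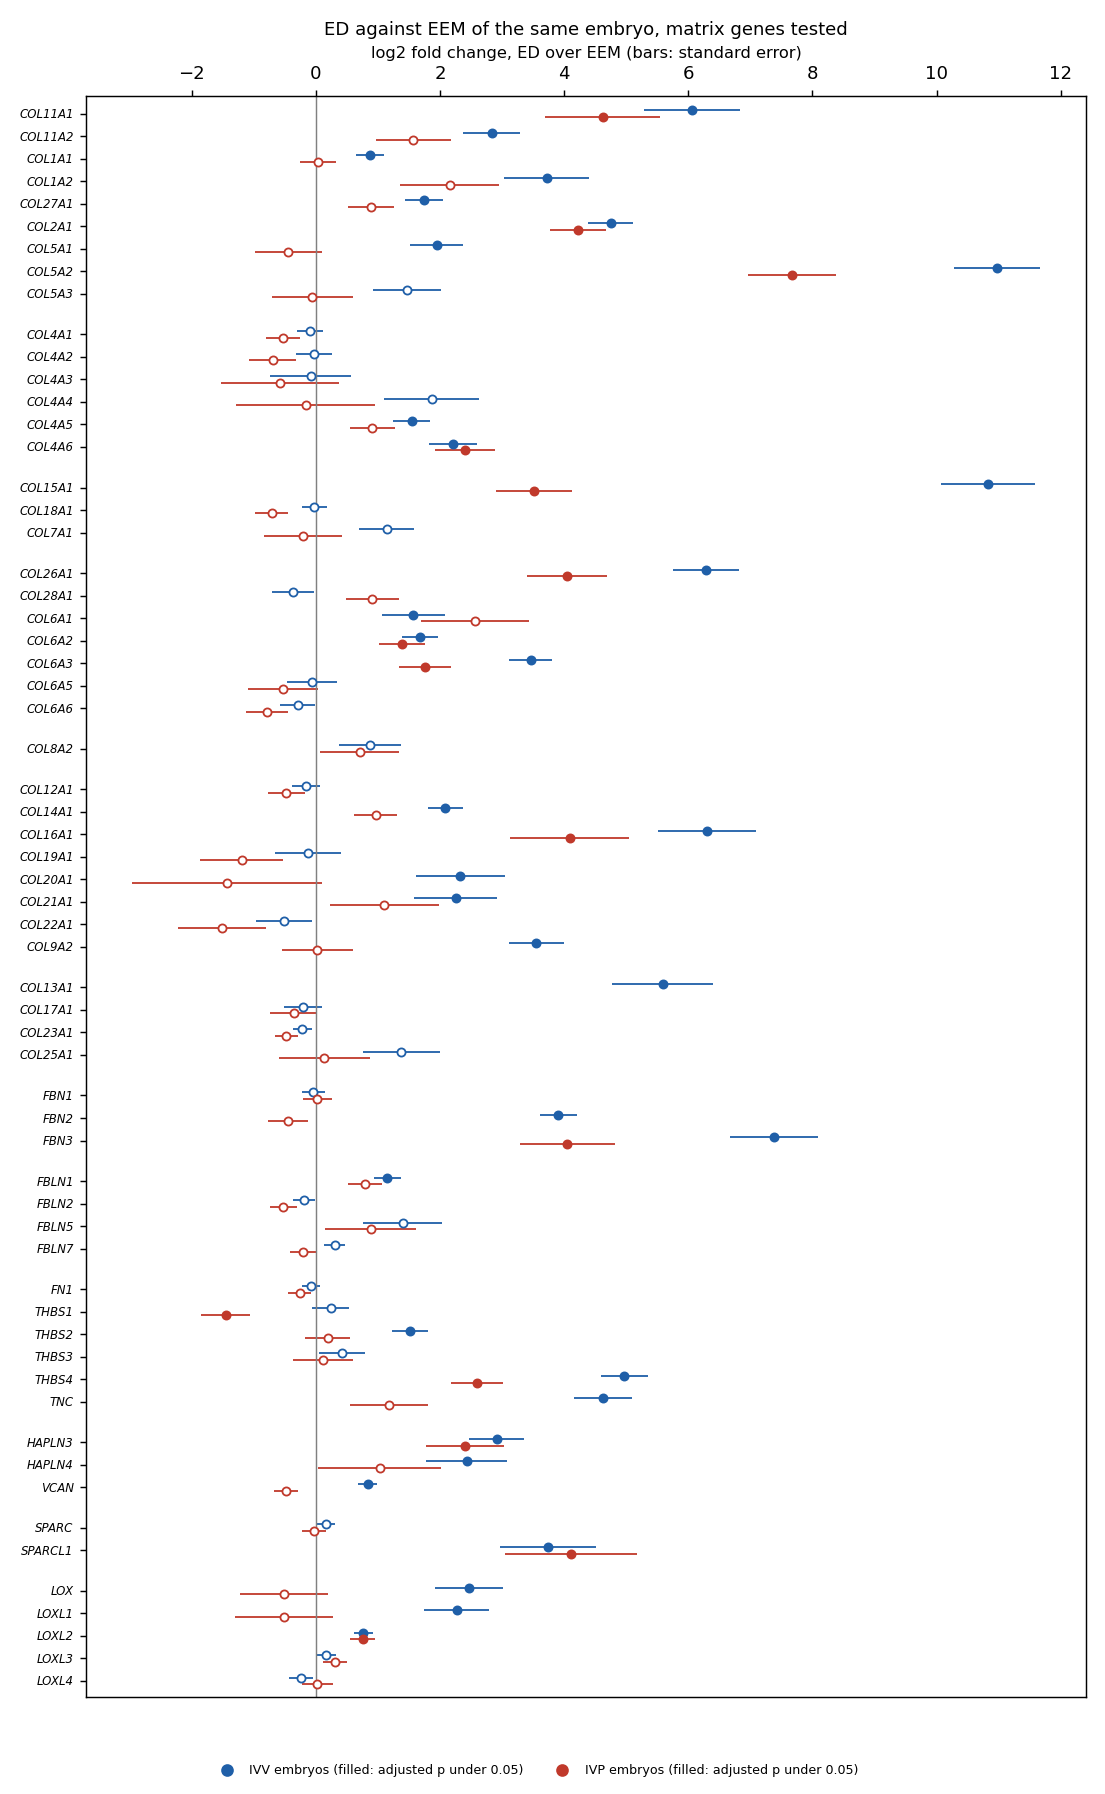
Log2 fold change of ED over EEM (points) with its standard error (bars) for the members tested, in IVV embryos (blue, 8 pairs) and IVP embryos (red, 5 pairs), ordered by kind of protein; filled points passed at an adjusted p under 0.05. All 34 filled blue points lie right of 0 and 1 filled red point, THBS1, lies left of it, and values for genes with nearly no counts in the EEM, such as COL5A2 and COL15A1, are fitted values that depend on a prior count.

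The comparison of IVP with IVV embryos in the ED asked how the discs of embryos produced in the laboratory differed from those of embryos conceived in the cow. Of 58 members tested, 13 were lower in IVP embryos (22.4%, beside 4.8% of all 15733 genes tested) and 0 were higher (beside 1.4%), where 6.2% of all genes were called in either direction. COL20A1 was tested only through its counts in IVV discs, since no IVP disc held 10 counts, which leaves 12 others among the 13. The median log2 difference of the members was -0.78, beside -0.01 over all genes. At an unadjusted p under 0.05, 24 members were lower and 4 higher, beside 2879 of all genes in either direction. DESeq2 called 17 lower and 1 higher, beside 1512 of all genes in either direction. Each member called lower in IVP discs overlapped with the IVV discs except TNC, and 0.718% of all genes were lower without overlap.

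TNC was the member called whose groups did not overlap. In the 7 IVP discs it ran from 0 to 17 counts (0 to 0.273 CPM, median 0.248) and in the 9 IVV discs from 43 to 229 counts (0.868 to 3.52 CPM, median 2.51). The lowest IVV disc, VE19, held 43 counts, the highest IVP discs, IVP14 and IVPF10, held 17 each, and IVPF15 held none. The log2 difference was -3.83 (SE 0.505, adjusted p = 3.66e-05). The IVV discs low in XIST, VE3 and VE5, had 2.27 and 3.52 CPM and lay with the other IVV discs.

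FBN2 ran from 0.778 to 1.08 CPM (median 0.887) in IVP discs and from 0.797 to 5.10 CPM (median 3.06) in IVV discs, a log2 difference of -1.80 (SE 0.336, adjusted p = 0.0015). The IVP discs lay close together, and only VE24, at 0.797 CPM, fell into their range. FBN3 ran from 0.315 to 1.59 CPM (median 1.15) in IVP discs and from 0.579 to 10.4 CPM (median 1.99) in IVV discs, a log2 difference of -1.67 (SE 0.476, adjusted p = 0.0374). Its difference was -1.11 without VE5, the highest disc, and its call ended when any of VE5, VE28, VE29, IVP10, IVP11, IVPF10, IVPF13, IVPF14 or IVPF15 was left out, and also with 2 surrogate variables, which stand for unlabelled variation between libraries, in place of the 1 in the fit, or with the letter in the sample titles (the title letter) as a term. FBN1 had a difference of 0.15 (SE 0.306).

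Of the fibrillar collagens, 2 of 9 tested were lower in IVP discs. COL5A1 ran from 0.294 to 3.14 CPM (median 0.834) in IVP discs and from 0.282 to 15.0 CPM (median 6.30) in IVV discs, a log2 difference of -2.58 (SE 0.452, adjusted p = 0.00112), with VE19 below all IVP discs and the 8 other IVV discs above all of them. Against VE3 and VE5, the IVV embryos low in XIST, alone, it was at -1.64 and did not pass (adjusted p = 0.268). COL11A2 ran from 0.537 to 2.52 CPM (median 1.09) and from 1.72 to 13.3 CPM (median 3.69), a difference of -1.88 (SE 0.425, adjusted p = 0.00854). COL5A2, the partner of COL5A1, ran from 0.611 to 4.40 CPM (median 3.48) in IVP discs and from 1.14 to 11.6 CPM (median 4.60) in IVV discs, and its difference of -0.57 (SE 0.426) did not pass the test (adjusted p = 0.552). COL5A3, the chain of a rarer form, had a difference of 0.33 (SE 0.779).

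COL1A1 and COL1A2 were at -0.86 (SE 0.437) and -2.25 (SE 0.727) in IVP against IVV discs and did not pass the test, with adjusted p of 0.312 and 0.0812. COL2A1 and COL11A1 were at -0.96 and -0.89 and did not pass either. COL15A1 ran from 2.20 to 11.8 CPM (median 6.65) in IVP discs and from 2.17 to 67.1 CPM (median 15.3) in IVV discs, a difference of -1.69 (adjusted p = 0.0685). COL15A1 and COL1A2 were called lower in IVP discs by DESeq2. COL15A1 was also called with XIST as a covariate, against embryos low in XIST only and without VE4, and COL1A2 without VE3 or VE19.

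COL6A1 and COL6A3 were lower in IVP discs, at log2 differences of -1.90 (SE 0.523, adjusted p = 0.0271) and -1.88 (SE 0.473, adjusted p = 0.0187), with medians of 0.248 against 0.730 CPM and 1.21 against 3.38 CPM. Both calls, like those of COL26A1 and THBS1 below, ended when XIST was taken into account. With its level as a covariate the differences were -0.39 and -0.32, and against the IVV embryos low in XIST alone, VE3 and VE5, they were -0.30 and -0.46, and neither passed. COL6A3 also lost its call without IVP11 (-1.49, adjusted p = 0.078), and its difference was -1.42 without VE6. COL6A1 lost its call without IVP10, IVPF10, VE6, VE26, VE28 or VE29, at -1.88 to -1.65, and with no surrogate variable or with 2, and COL6A3 with the title letter as a term. COL6A2 was at -0.76 (SE 0.42) and COL6A6 at 1.45 (SE 0.518), and neither passed, although COL6A6 was called higher in IVP discs by DESeq2, without VE19 and against embryos low in XIST only.

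COL26A1 was at 0.500 to 2.95 CPM (median 1.43) in IVP discs and 1.48 to 10.02 CPM (median 3.82) in IVV discs, a difference of -1.80 (SE 0.414, adjusted p = 0.00898). With XIST as a covariate it was at -1.76 (adjusted p = 0.0657) and against embryos low in XIST only at -1.91 (adjusted p = 0.114). COL9A2, a chain of collagen IX, ran from 0.116 to 1.97 CPM (median 0.724) in IVP discs and from 1.54 to 16.5 CPM (median 4.06) in IVV discs, a difference of -3.25 (SE 0.605, adjusted p = 0.00275), and only IVPF15 among the IVP discs reached the lowest IVV disc, VE4. COL9A3, from the same trimer, had at most 7 counts in IVP discs and at most 34 in IVV discs and was not tested. COL20A1, a FACIT collagen, had 0 or 1 count in every IVP disc and 0 to 49 counts in IVV discs, at least 6.67-fold lower in IVP discs. When VE3, VE6, VE19, VE24, VE26, VE28 or VE29 was left out, or with VE3 and VE5 as the only IVV embryos, COL20A1 had too few counts for the test and was not among the calls.

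HAPLN3, which stabilizes the bond of proteoglycans to hyaluronan, ran from 0.207 to 0.578 CPM (median 0.439) in IVP discs and from 0.465 to 4.95 CPM (median 1.20) in IVV discs, a difference of -2.22 (SE 0.443, adjusted p = 0.00275). HAPLN1 had at most 1 count in IVP discs and 4 to 28 counts in IVV discs. It had too few counts for the test, and its difference is given as counts only, chosen after its values were seen. With no filter on low counts, HAPLN1 and COL13A1 were called lower. COL13A1 had 0 counts in every IVP disc and 0 to 50 in IVV discs. VCAN itself was at 0.34 (SE 0.247, adjusted p = 0.541). LOXL1, with 0 to 10 counts in IVP discs and 8 to 35 in IVV discs, was lower, with a difference of -2.57 (SE 0.555, adjusted p = 0.00524). Against embryos low in XIST only LOXL1 was at -2.86 and did not pass (adjusted p = 0.174). The 4 other lysyl oxidases were between -1.08 and 0.55 and did not pass.

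THBS1 ran from 2.91 to 39.9 CPM (median 15.1) in IVP discs and from 17.6 to 101 CPM (median 54.3) in IVV discs, a difference of -1.89 (SE 0.517, adjusted p = 0.0378). Its call ended when IVP10, IVPF13, IVPF14, VE5, VE26 or VE28 was left out, with values of -1.92 to -1.54 and adjusted p up to 0.081. It also ended with no surrogate variable (adjusted p = 0.0753), with XIST as a covariate (0.0809) and against embryos low in XIST only (0.154), at -2.23 to -1.70. THBS4 and THBS2 were at -0.95 and -0.85 and did not pass, although THBS4 was called lower with XIST as a covariate and against embryos low in XIST only.

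Markers of other disc cells were called in the same comparison, in which 4.8% of all genes were lower and 1.4% higher. Of 10 mesoderm markers tested, 7 were lower in IVP discs (70%), and their summed level over 15 genes ran from 11.8 to 30.3 CPM (median 19.2) in IVP discs and from 25.5 to 141.9 CPM (median 50.6) in IVV discs. Of 7 epiblast markers tested, 2 were lower (28.6%), with sums of 236.1 to 579.8 CPM (median 276.2) and 220.7 to 1044 CPM (median 380.6). Of 8 markers of endothelium and blood progenitors, 3 were lower (37.5%) and 1 higher (12.5%), and KDR, the receptor that marks their precursors, ran from 0 to 0.638 CPM in IVP discs and from 0.706 to 33.2 CPM in IVV discs, with no overlap. Of 12 hypoblast markers, 0 were lower (1 at an unadjusted p under 0.05) and 1, RSPO3, was higher (8.33%), with a median log2 difference of 0.09. Of 14 trophoblast markers, 1 was lower, KRT7 (7.14%), and 0 were higher, also at an unadjusted p under 0.05, and their summed level over 15 genes had medians of 27660 and 27270 CPM. The part of the makeup of the disc in the matrix result was not tested.

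Leaving out 1 library at a time gave 9 to 15 members lower in IVP discs, the 9 without VE28 and the 15 without VE4. Without IVPF13, 12 were lower, with FBN3 and THBS1 lost and COL13A1 gained. COL13A1 had 0 counts in every IVP disc, so that only IVV discs carried it through the minimum. Among the 7 IVP discs, IVP10 held the lowest level in 23 of the 58 members tested and IVP14 the highest in 26. With the IVV embryos low in XIST as the only IVV embryos, 9 of 62 members tested were lower and 1 was higher. Of all 16890 genes tested in that setting, 451 were called in either direction. TNC, FBN2, HAPLN3, COL9A2 and COL11A2 kept an adjusted p under 0.05 in each of the 8 other settings tried and without each single library, with the value nearest to 0 at -1.48, for COL11A2 without VE5.

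The same comparison was made in the EEM. Of 41 members tested, 3 were higher in IVP embryos (7.32%, beside 2.41% of all 14718 genes tested) and 0 were lower (beside 1.59%), with a median log2 difference of 0.28 beside 0.00 over all genes. At an unadjusted p under 0.05, 10 members were higher and 2 lower, beside 2001 of all genes in either direction. DESeq2 called 3 higher and 0 lower, beside 804 of all genes in either direction. In 2 members the groups did not overlap, as in 0.523% of all genes. The other 25 members had too few counts in the EEM for the test.

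FBN2 ran from 23 to 94 counts (0.437 to 1.88 CPM, median 1.24) in the 6 EEM libraries of IVP embryos and from 4 to 17 counts (0.0855 to 0.309 CPM, median 0.203) in the 8 of IVV embryos. Every IVP library lay above every IVV library, and the log2 difference was 2.54 (SE 0.401, adjusted p = 9.1e-05). VCAN ran from 64.4 to 145 CPM (median 89.0) in IVP embryos and from 13.5 to 58.1 CPM (median 29.6) in IVV embryos, again without overlap, a difference of 1.5 (SE 0.304, adjusted p = 0.00403). Both kept their calls without each single library.

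THBS4 ran from 0.393 to 0.741 CPM (median 0.459) in the EEM of IVP embryos and from 0.0882 to 0.401 CPM (median 0.163) in that of IVV embryos, a difference of 1.37 (SE 0.389, adjusted p = 0.0378). Its groups overlapped through VE26 alone, at 0.401 CPM. The call ended when IVP11, IVP14, IVPF14, VE3, VE4, VE19, VE24, VE28 or VE29 was left out, with values of 1.18 to 1.45, and in 6 of the 8 other settings, namely with no surrogate variable, with 2, with no filter, with the title letter as a term and in both settings for XIST, with adjusted p of 0.0656 to 0.845. With XIST as a covariate only FBN2 kept its call, and VCAN was at 1.94 (adjusted p = 0.0624). Against VE3 and VE5 alone the differences of FBN2 and VCAN were 2.43 and 1.74, with adjusted p of 0.198 and 0.0637.

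The remaining matrix genes of the EEM did not pass. COL4A1 was at 0.61 (SE 0.282), FN1 at 0.37 (SE 0.265), COL1A1 at 0.14 (SE 0.521), and COL5A1, which ran from 0 to 3.31 CPM in IVP and from 0.0214 to 5.63 CPM in IVV embryos, at -0.41 (SE 0.997). COL22A1, a collagen of tissue junctions, was at -1.63 (SE 0.556, adjusted p = 0.143) and was called lower without IVPF13 or VE19. COL5A3 was at 1.41 (SE 0.439, adjusted p = 0.0644) and was called higher without VE5. LOX was called higher with 2 surrogate variables or without IVPF14, FBLN1 without IVPF9, and COL15A1 with no filter. TNC had at most 11 counts in any EEM library. The summed mesoderm markers of the EEM ran from 4.33 to 19.8 CPM in IVP and from 9.39 to 16.1 CPM in IVV embryos. Over all genes tested in the EEM, 2.41% were higher and 1.59% lower. Of 7 mesoderm markers tested there, TWIST1 was higher and SNAI2 lower in IVP embryos (14.3% each). Of 12 hypoblast markers RSPO3 was higher and TTR lower (8.33% each), and of 14 trophoblast markers KRT7 was lower (7.14%). Of 5 epiblast markers and 3 of endothelium and blood progenitors, 0 were called, and 0 and 1 passed at an unadjusted p under 0.05. The part of the makeup of the membranes in the values of FBN2, VCAN and THBS4 was not tested.

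**Figure D4:**
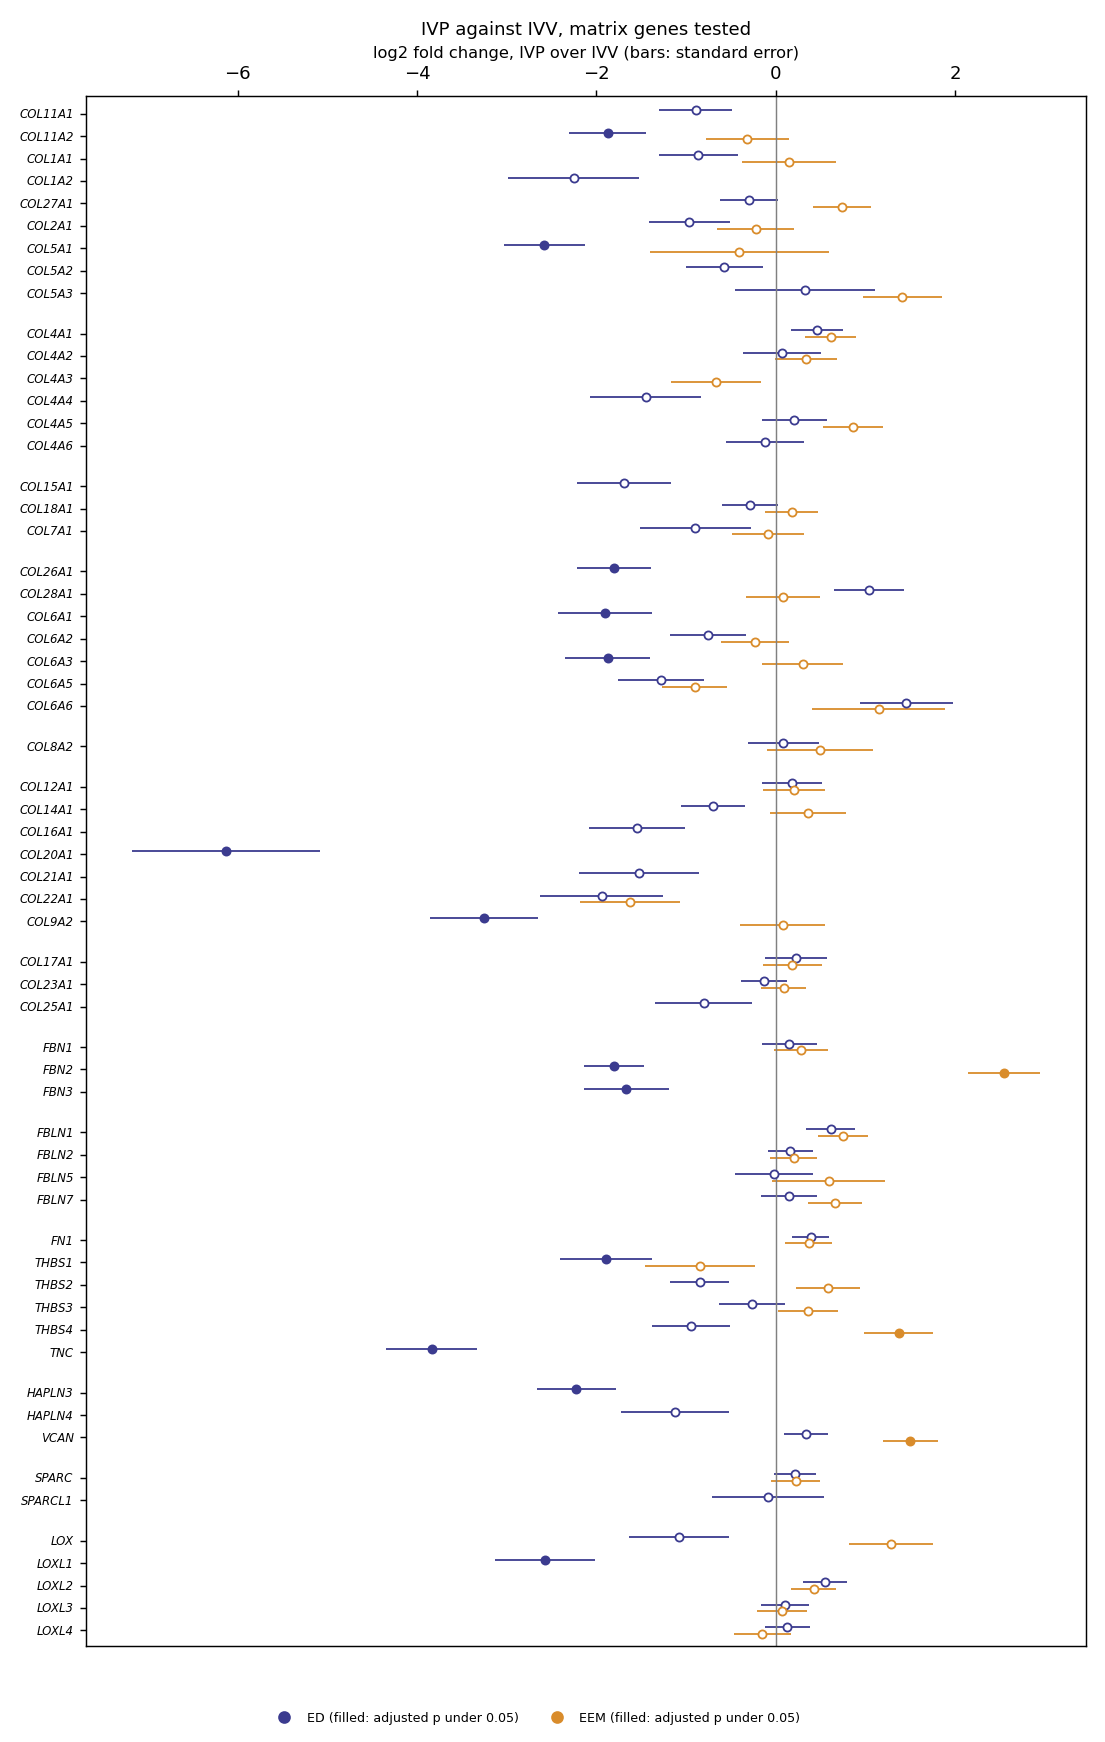
Log2 fold change of IVP over IVV (points) with its standard error (bars) for the members tested in the ED (dark blue, 7 against 9 libraries) and in the EEM (orange, 6 against 8), ordered by kind of protein; filled points passed at an adjusted p under 0.05. The 13 filled points of the ED lie left of 0 and the 3 filled points of the EEM (FBN2, VCAN and THBS4) lie right of it, and the value of COL20A1 in the ED is a fitted value that depends on a prior count.

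Whether IVP and IVV embryos differed unequally in ED and EEM was tested as an interaction in the 13 embryos with both. Neither cow nor XIST, which go with procedure here, was a term in this fit. In 6 of 61 members the difference of ED over EEM was smaller in IVP than in IVV embryos (9.84%, beside 0.929% of all 16784 genes), and in 0 it was larger (beside 0.107%), where 1.04% of all genes were called in either direction. At an unadjusted p under 0.05 the counts were 17 and 1, beside 1732 of all genes in either direction. DESeq2 called 9 and 0, beside 435 of all genes in either direction. The interaction uses the libraries of the comparisons above, so its values are another view of those libraries.

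FBN2 had an interaction of -4.35 (SE 0.447, adjusted p = 5.82e-05). In the 8 IVV embryos its level was higher in the ED than in the EEM of the same embryo, and the log2 difference was 3.90. In the 5 IVP embryos the ED ran from 0.778 to 1.08 CPM and the EEM from 0.452 to 1.88 CPM, so that the tissues overlapped and the difference was -0.45. FBN2 was thus lower in the ED and higher in the EEM of IVP embryos, with log2 differences of -1.80 and 2.54 in fits of the single tissues, which share the libraries of the interaction.

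VCAN had an interaction of -1.31 (SE 0.248, adjusted p = 0.0106), with differences between tissues of 0.83 in IVV and -0.48 in IVP embryos. Without the embryo as a block it was -1.10 (adjusted p = 0.49). COL15A1 had a fitted interaction of -7.31 (SE 1.14, adjusted p = 0.0026), which rests on 0 or 1 count in the EEM of IVV embryos and is no bound on its size. COL9A2 was at -3.53 (SE 0.743, adjusted p = 0.0224), with a tissue difference of 3.55 in IVV and of 0.02 in IVP embryos.

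THBS4 and TNC had interactions of -2.38 (SE 0.54, adjusted p = 0.0371) and -3.44 (SE 0.813, adjusted p = 0.0448). Without IVPF13, the values of COL9A2, THBS4 and TNC were -3.07, -2.47 and -3.43 with adjusted p of 0.0742, 0.0518 and 0.0971, and 3 members passed in all, as they did without IVP10 or VE28. COL9A2 also lost its call without IVP10 or VE28, and THBS4 without IVP10, IVP11, IVPF14, VE3, VE5, VE28 or VE29, at -2.10 for THBS4 without IVP10. TNC kept its call only when VE19 was the embryo left out. FBN2, COL15A1 and VCAN kept theirs without each of the 13 embryos.

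**Figure D5:**
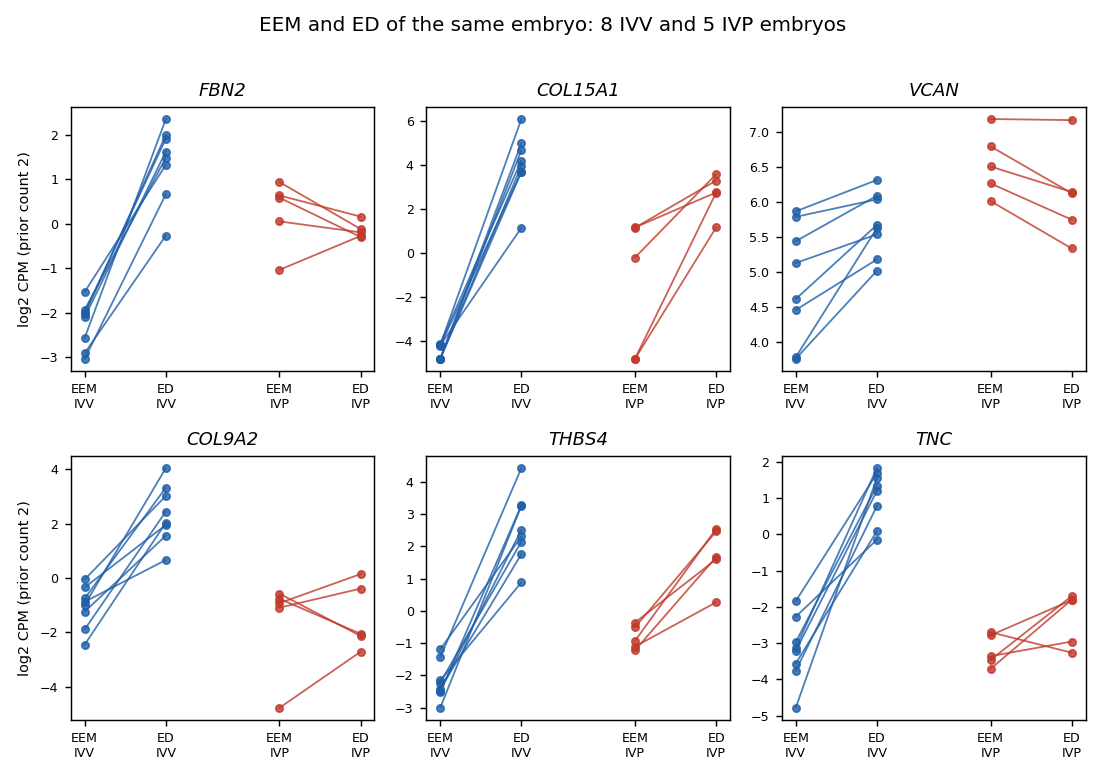
Levels of FBN2, COL15A1, VCAN, COL9A2, THBS4 and TNC in the EEM and ED of the same embryo, as log2 CPM with a prior count of 2, with a line for each of 8 IVV embryos (blue) and 5 IVP embryos (red). The lines of FBN2 rise from EEM to ED in all IVV embryos and in 1 of the 5 IVP embryos, and the 3 raised EEM points of COL15A1 belong to IVP11, IVPF13 and IVP14.

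Genes that make, process or bind matrix were followed as 4 further lists, and their counts come from the same fits. Of 27 other matrix glycoproteins and proteoglycans tested in the ED, 10 were lower in IVP embryos (37%, beside 4.8% of all genes) and 0 higher (beside 1.4%), with a median of -0.97. TGFBI, an adhesion protein induced by TGF-beta, ran from 4.17 to 14.9 CPM (median 6.34) in IVP discs and from 20.8 to 138 CPM (median 63.3) in IVV discs, a difference of -3.18 (SE 0.402, adjusted p = 5.72e-05), with no overlap. SPP1 (osteopontin), NPNT (nephronectin) and SPOCK1 (testican-1) were lower, with log2 differences of -3.05, -2.10 and -2.48. MGP, a calcification inhibitor and 1 of the 10, had at most 1 count in IVP discs and up to 93 in IVV discs. It was tested only through its counts in IVV discs, and the 37% includes it. At an unadjusted p under 0.05, 1 gene of the list was higher.

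In the ED, 28 genes for folding, hydroxylation and processing of collagen were tested. Of these, 2 were lower in IVP embryos (7.14%, near the 4.8% of all genes) and 0 were higher. Lower were TLL2, with a log2 difference of -1.76 (SE 0.418), and ADAMTS2, a protease that trims procollagen, with -1.93 (SE 0.556). SERPINH1, the collagen chaperone, had medians of 242.5 and 234.9 CPM in IVP and IVV discs, and P4HB, a subunit of prolyl hydroxylase, of 1938 and 1623 CPM, and neither passed. The median of the list was 0.07, and at an unadjusted p under 0.05, 0 genes of it were higher and 5 lower.

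Of 20 partners of microfibrils and elastic fibres tested in the ED, 3 were lower in IVP embryos (15%, beside the same 4.8%) and 0 higher: ADAMTS10, a protease bound to fibrillin, EMILIN3 and TGFB2, with log2 differences of -1.83, -3.27 and -1.36. Of 16 receptors other than integrins, 1 was higher and 1 lower (6.25% each, beside 1.4% and 4.8% of all genes). SDC1 (syndecan-1) was higher by 1.58 (SE 0.285) and SDC2 lower, at -0.84 (SE 0.252). In the EEM, 2.41% of all genes were higher in IVP embryos and 1.59% lower. Of 25 genes for folding and processing tested there, 1 was higher (4%), PCOLCE2, an enhancer of procollagen trimming, by 1.77. Of 17 microfibril partners 1 was lower (5.88%), TGFB2, at -1.63. Of 16 receptors 1 was higher (6.25%), SDC1, by 1.72 (SE 0.267, adjusted p = 9.1e-05), from 28.8 to 116 CPM against 8.34 to 49.8 CPM. No other gene of these 3 lists was called there. None of the 20 glycoproteins tested there passed with edgeR, and 2 were higher and 2 lower at an unadjusted p under 0.05.

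Between the tissues of IVV embryos, where 15.5% of all genes were higher in the ED and 6.58% lower, 12 of 29 glycoproteins were higher (41.4%) and 1 lower, NID2 (3.45%). Higher were also 10 of 29 assembly genes (34.5%) with 1 lower, SEC24D, and 9 of 21 microfibril partners (42.9%) with 2 lower, TGFB2 and MFAP5 (9.52%). Of 16 receptors 4 were higher (25%) and 0 lower, also at an unadjusted p under 0.05. ELN, which codes for elastin, ran from 0.948 to 14.01 CPM (median 4.27) in the ED and from 0 to 0.225 CPM (median 0.0560) in the EEM, a difference of 5.32 (SE 0.521, adjusted p = 3.06e-07). In IVP embryos, where 4.16% of all genes were higher and 0.661% lower, the counts of higher genes were 6, 0, 3 and 0 in the same order, and those of lower genes 3 (NID2, CCN2 and VWA1), 0, 0 and 0. At an unadjusted p under 0.05, the higher genes were 6, 4, 4 and 1 and the lower genes 6, 2, 0 and 1.

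Of all 66 members, 8 had too few counts for the test in the ED, 25 in the EEM and 5 in the paired comparison. Those left out of all 3 were COL24A1, COL3A1, COL8A1, COL9A3 and HAPLN1. COL3A1, the partner of collagen I in most soft tissues, had 0 to 38 counts in the ED and 0 to 7 in the EEM. Every library of the group held at most 3 counts for 7 members in the EEM of IVP embryos, for 5 in the EEM of IVV embryos, for 3 in the ED of IVP embryos and for 0 in the ED of IVV embryos. Such low counts show that a gene was not detectable at this depth, and these limits cover counting error only.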

How the data were processed

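Poly(A) RNA of 30 ED and EEM pieces was sequenced as paired reads without strand information, and the authors trimmed the reads, aligned them with STAR (2.7.0b) to the bovine build ARS-UCD1.3, and obtained gene counts from featureCounts (Subread 2.0.3). The deposited values are these counts, whole numbers without normalization. Even small counts were more frequent than odd ones (19289 entries of 2 against 15257 of 1), so the mates of a pair may often have been counted singly, and a count is not always a separate molecule. Without strand, reads of overlapping and antisense genes cannot be told apart. Gene identifiers were matched to symbols through a RefSeq gene table of another assembly, used for names only: 31630 of 35092 genes matched, with 99.51% of the counts. Transcript lengths and sequences were not used here, so levels are not compared between genes, and the ratio of counts of a pair of genes is compared only between libraries.

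Total counts per library ran from 48713218 to 63037371. A gene with 3 counts or fewer in every library of a group was treated as at the floor, and its fold is given as a lower bound against 3 counts per library. Between tissues these bounds use the paired embryos only, whereas ranges and overlap use all libraries of a group. The members and lists were chosen with earlier results of these data known.

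Groups came from the sample labels. IVP was compared with IVV within each tissue by edgeR (4.0.16) with TMM scaling, a minimum count of 10 in its expression filter, a robust quasi-likelihood fit and 1 surrogate variable from sva (3.50.0), since the study adjusted with surrogate variables whose number is not given in the sources used here. ED was compared with EEM, and the interaction tested, in 1 quasi-likelihood fit of the 13 embryos with both tissues and with the embryo as a block. The pairing comes from the embryo names in the labels. Deviations from the group means were correlated within 12 of the 13 embryos (r from 0.34 to 0.818), and the exception was IVPF13 (r = -0.365). P-values were adjusted over all genes tested by Benjamini and Hochberg, with a threshold of 0.05. The fits were tested on simulated data. Alternatives were no surrogate variable or 2, DESeq2 (1.42.0), its size factors, no filter, XIST as a covariate, the letter in the sample titles as a term, no block and leaving out each library or embryo. The comparison of embryos low in XIST only was chosen after seeing the data. P-values measure the spread between embryos that shared 2 cows per procedure.

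Genes named were the markers COL5A2, FBN2 and TNC, the members called between procedures or in the interaction, the 10 with the smallest p between tissues in IVV embryos, the partner chains of the named collagens and up to 5 called genes of each list per tissue. Every other gene named with its values was chosen after its values were seen.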

Additional observations from a re-analysis of the deposited data

Results flagged for a closer look

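In 10 of 77 groups of libraries, 1 embryo lay far from the rest of its group by Dixon's criterion, which chance alone meets in about 1 of 20 groups. Among the IVP discs, IVP10 was far below the others in 4 genes, at 0.333 CPM for COL11A1, 1.48 CPM for COL2A1, 0.611 CPM for COL5A2 and 1.17 CPM for THBS4. IVPF14 was listed at 0 CPM for COL6A1 in the ED and for COL9A2 and COL11A2 in the EEM, and IVP11 at 0 CPM for COL26A1 in the EEM. Among IVV embryos, VE19 was far below the other discs in COL5A1, at 0.282 CPM, and VE24 was far above the other membranes in COL16A1, at 0.0966 CPM or 6 counts.

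The difference of IVP and IVV embryos was unequal in ED and EEM in 6 genes by the interaction test of edgeR (adjusted p under 0.05). The log2 difference of ED over EEM in IVP minus that in IVV embryos was -4.35 for FBN2, -1.31 for VCAN, -3.53 for COL9A2, -2.38 for THBS4 and -3.44 for TNC. That of COL15A1 was -7.31, a fitted value that depends on a prior count because the EEM of IVV embryos held 0 or 1 count. The calls of COL9A2, THBS4 and TNC ended without IVPF13, the embryo whose tissues did not deviate together, at -3.07, -2.47 and -3.43. Of 13 embryos left out in turn, COL9A2 lost its call with 3, THBS4 with 8 and TNC with 12.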

How the results depend on the processing

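No count or named value of the members changed direction under any alternative run, and the further lists and markers were not refitted. Of the values of single genes, 226 kept their side of the threshold under the alternatives other than leaving out libraries and 29 lost it. In the ED, 1 member, COL6A6, was higher in IVP embryos with DESeq2 and 1, again COL6A6, against embryos low in XIST only, where the chosen test gave 0. In the EEM, 1 member was higher with XIST as a covariate and 0 against embryos low in XIST only, where the chosen test gave 3. In IVP embryos, 0 members were lower in the ED without the embryo as a replicate block and 0 with no filter on low counts, where the chosen test gave 1. The cause was not tested. Without the block, 29 members were higher in the ED of IVV and 11 in that of IVP embryos, and 5 passed in the interaction.

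Leaving out 1 library or embryo at a time gave 0 to 1 members higher and 9 to 15 lower in IVP discs, 2 to 4 higher and 0 to 1 lower in the EEM of IVP embryos, 31 to 38 higher and 0 to 0 lower in the ED of IVV embryos, 9 to 14 higher and 0 to 1 lower in the ED of IVP embryos, and 0 to 0 higher and 3 to 6 lower in the interaction. Over all genes, the calls between procedures in the ED were 975, and 1512 with DESeq2, 1811 with no filter, 630 with XIST as a covariate and 451 against embryos low in XIST only. In the EEM they were 589, and 356 with no surrogate variable, 1161 with no filter, 143 with XIST as a covariate and 84 against embryos low in XIST only. Between tissues in IVV embryos they were 3714, and 2254 without the block, and in the interaction 174, and 435 with DESeq2. The planned level per length was not run, since no transcript lengths were used here. Low counts left 8 members untested in the ED and 25 in the EEM.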

Other observations

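The ratio of the chains of collagen IV varied between embryos and was chosen for description after its values were seen. The count of COL4A2 over that of COL4A1 was 2.28 in the ED and 2.53 in the EEM of VE19, 0.322 and 0.336 in those of IVPF14, and 0.374 and 0.99 in those of IVPF13. In the other 10 embryos with both tissues the ratio lay between 0.675 and 1.23.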
